A study of Mus musculus with 6 samples.

Results

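The 5 miRNAs described here, mir-335, mir-675, mir-483, mir-296 and mir-298, are produced from imprinted loci other than the Dlk1-Dio3 domain, and were taken by name from a small-RNA table of 898 miRNA genes. All 5 were listed in it and above 0 in both groups, and 634 of the 898 were above 0 in at least 1 group. The cells were E14Tg2a, a mouse embryonic stem cell line, at passages 37 to 40. There were 3 samples of pluripotent embryonic stem cells (ESCs), maintained with leukemia inhibitory factor (LIF), and 3 of neuronal cells (NCs), which were the same line after LIF withdrawal and 1 µM retinoic acid (RA) for 48 hours. The comparison asked which of these miRNAs differ in level when ESCs are turned towards a neuronal fate. The labels give embryonic stem cells as the source of both groups, which come from 1 line, with the NCs at an early time point. They do not say whether the 3 samples of a group were separate passages, so p-values measure only the spread between these samples, which may be technical.

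An imprinted gene is transcribed mainly from the copy inherited from one parent, and the parental copies are told apart by DNA methylation set in the germline, which can lie on the silent or on the expressed copy. Many imprinted genes act on fetal growth and on the placenta, and several contain miRNAs in their introns or exons. Mest and Igf2, a fetal growth factor, are expressed from the paternal copy, and H19, a long noncoding RNA next to Igf2, from the maternal copy. The Gnas domain holds transcripts of either parental origin, among them the paternal antisense transcript Nespas. A miRNA hairpin is cut into a 5p and a 3p arm of about the same length, and bases 2 to 8 of the arm that is loaded, the seed, lead in choosing its targets. The small-RNA table gave 1 value per hairpin gene, so the arms could not be told apart.

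All 5 members matched a hairpin in RefSeq on build GRCm38, with 10 mature arms. The arms are shown because the seed is what a change in level of any member would bring to its targets. Each is written 5′ to 3′ with the seed in capitals.
miR-335-5p: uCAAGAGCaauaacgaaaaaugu
miR-335-3p: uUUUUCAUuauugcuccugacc
miR-675-5p: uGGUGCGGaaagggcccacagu
miR-675-3p: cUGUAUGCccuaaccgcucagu
miR-483-5p: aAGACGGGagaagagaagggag
miR-483-3p: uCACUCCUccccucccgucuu
miR-296-5p: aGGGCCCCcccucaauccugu
miR-296-3p: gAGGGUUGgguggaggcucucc
miR-298-5p: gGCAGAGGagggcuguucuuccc
miR-298-3p: gAGGAACUagccuucucucagcuu

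The 10 arms had 10 distinct seeds, so the members fell into no shared seed group, although mir-296 and mir-298 are neighbours. None of the 1736 other mature sequences that each arm was compared with had the same 7 bases at positions 2 to 8. The longest run of bases that an arm shared with another mature sequence was 11, between miR-298-5p and miR-7047-5p, and the arms of mir-335 shared at most 9. The arms of mir-335 were the poorest in G and C, with 30.4% in 5p and 36.4% in 3p, against 50.0% to 68.2% in the arms of the other 4 members.

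Positions are those of GENCODE M21 on GRCm38, the same assembly as the mm10 named in the submitters' processing notes. mir-335 (chromosome 6, 30741299 to 30741396, plus strand) lay in an intron of Mest on the same strand and met no exon of its 11 annotated transcripts. mir-675 (chromosome 7, 142577064 to 142577147, minus strand) lay in an exon of H19 in 3 of its 7 transcripts. mir-483 (chromosome 7, 142654924 to 142654996, minus strand) lay in an intron of Igf2, 77.8 kb from mir-675. mir-296 (chromosome 2, 174267047 to 174267125) and mir-298 (chromosome 2, 174267504 to 174267585) were on the minus strand, 378 bases apart. Neither overlapped an annotated gene, and mir-298 was 13.7 kb beyond the annotated end of Nespas, which is on the same strand. The hairpins of the 3 members with over 100 normalized counts are shown with their mature arms in capitals.
Hairpin of mir-335: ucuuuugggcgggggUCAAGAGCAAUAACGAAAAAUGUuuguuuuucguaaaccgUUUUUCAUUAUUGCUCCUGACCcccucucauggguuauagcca
Hairpin of mir-296: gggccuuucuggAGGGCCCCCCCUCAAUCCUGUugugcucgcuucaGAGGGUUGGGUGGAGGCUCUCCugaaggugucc
Hairpin of mir-298: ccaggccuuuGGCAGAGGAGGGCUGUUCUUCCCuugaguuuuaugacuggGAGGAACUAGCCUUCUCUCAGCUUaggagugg

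The deposited values were the authors' group means of normalized counts, that is read counts divided by a size factor of each library. From the 10 decimals of these means, the reads of the 3 single libraries of a group could be recovered for most miRNAs. They were recovered for 613 of the 634 detected miRNAs in both groups, and for 4 of the 5 members. The miRNAs recovered in a group held only 24.7% of the summed group means in ESCs and 11.2% in NCs. Within a group the library with the largest size factor is called A, the next B and the one with the smallest C. They could not be tied to replicate numbers. Recovered reads summed to between 97151 and 368743 per library, without the most abundant miRNAs, and the size factors differed by up to 4.21-fold. Deeper and shallowest refer here to size factors, because total depths are not known without the most abundant miRNAs. The shallowest library, C, stood apart in both groups. Over 235 miRNAs with means of at least 20, its log2 deviation from the mean of A and B had an SD of 1.30 (ESC) and 1.19 (NC). The SD of the log2 difference of A and B was 0.300 and 0.232. The deviation had the same sign in both groups for 202 of the 235.

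The miRNAs that mark each state were compared with the labels. Of 12 ESC markers listed, of the miR-290 to miR-295 and miR-302 clusters, 7 were tested. All 7 were called lower in NCs by limma-voom, which called 5.96% of all miRNAs tested lower, and limma-trend called 6. Of 11 neuronal miRNAs listed, 2 were at 0 in both groups and 6 were tested. Of these 6, limma-voom called 0, with 4 at an unadjusted p under 0.05, and limma-trend called 0. Over all 319 miRNAs tested, 83 had an unadjusted p under 0.05 in limma-voom, and limma-trend called 49. A fit with C against A and B as covariate (the library set) called 5 of the 6 higher in NCs, where it called 23.5% of all miRNAs tested higher. The 6 are not separate measurements, because gene copies had nearly equal reads. In ESC library A, mir-9-1, mir-9-2 and mir-9-3 had 810, 796 and 801 reads, and mir-218-1 and mir-218-2 had 125 and 130. The group means of mir-10a and mir-10b, which lie in Hox clusters and answer to RA, summed to 3512 in ESCs and 810341 in NCs. The 4 muscle miRNAs listed were at 0 in both groups. The 3 blood miRNAs summed to 927 and 360, nearly all of it mir-142 (924 and 357), and the single liver miRNA to 0.411 and 0.

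Levels of the 5 members spread over the whole range of the table. mir-298 was the 8th most abundant miRNA in ESCs and the 6th in NCs, with 2.62% and 2.64% of the summed group means. mir-335 moved from rank 67 in ESCs to rank 26 in NCs, and its share from 0.0766% to 0.309%. mir-296 was at ranks 83 and 70. mir-483 held rank 424 and 360, and mir-675 rank 461 and 563, in ESCs and NCs in turn, among miRNAs with few or no reads in a library. A small-RNA read covers a whole mature miRNA, so these counts were not divided by length, and ranks also depend on how well each sequence is ligated and amplified. The median log2((NC mean + 1)/(ESC mean + 1)) of the 5 members was 0.49, beside 0.07 over all 634 detected miRNAs. The plot of level against difference shows the members among the other miRNAs.

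**Figure D1:**
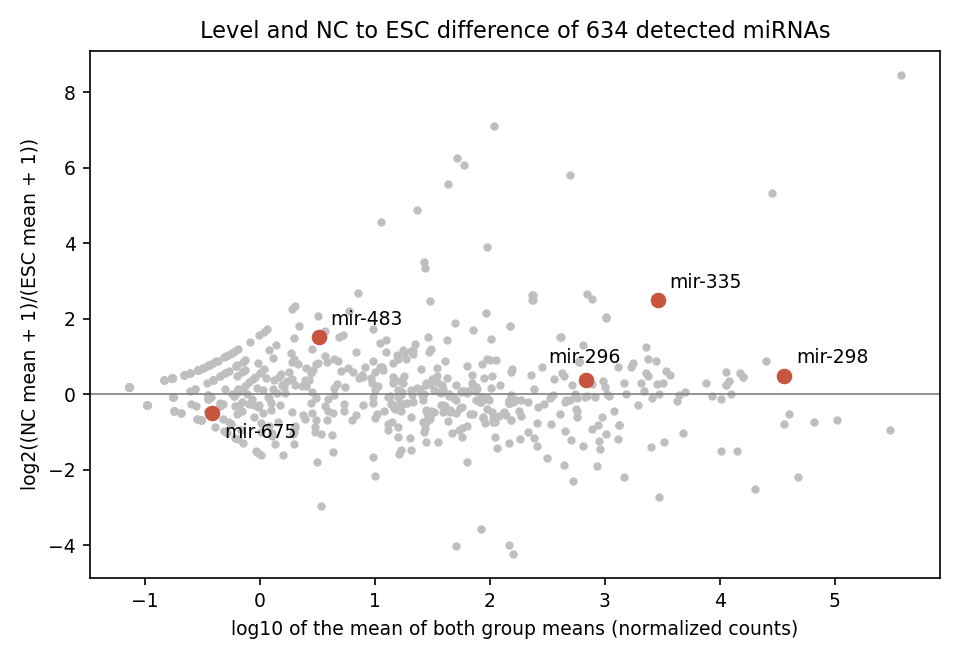
Each point is 1 of 634 detected miRNAs. The x axis is log10 of the mean of both group means in normalized counts, and the y axis is log2((NC mean + 1)/(ESC mean + 1)). The 5 members are in red, with mir-335 at 2.49, mir-483 at 1.51, mir-298 at 0.49 and mir-296 at 0.39, and mir-675 at the low end of the level axis. The value of mir-483 depends on the pseudocount, with 0.45 at a pseudocount of 10 and 1.76 at 0.5.

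mir-335, the miRNA in the Mest intron, had the largest difference of the 5 in log2((NC mean + 1)/(ESC mean + 1)), 2.49. It is known as a repressor of SOX4 and tenascin C in breast cancer cells. In ESCs, libraries A, B and C held 1696, 1119 and 225 reads of it, which were 1046, 1194 and 411 normalized counts. The NC libraries held 15520, 6435 and 910 reads, or 6728, 6588 and 1556 normalized counts. Every NC library was above every ESC library, the lowest NC value being 1.30 times the highest ESC value. Such a lack of overlap, in either direction, was seen in 31.3% of the 319 miRNAs tested, and with NCs higher in 16.9%. In both groups library C was the low one, and A and B lay close together.

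In such bulk samples, more cells that make a miRNA and more of it per cell cannot be told apart. The means of mir-335 were 883 ± 416 (SD, n = 3) in ESCs and 4958 ± 2947 (SD, n = 3) in NCs, a 5.61-fold difference. In limma-voom over 319 miRNAs its log2 fold change (FC) was 2.47 ± 0.69 (SE), with a 95% interval of 1.79-fold to 17.2-fold. The adjusted p-value was 0.0556, so it did not pass the threshold of 0.05. It was 52nd in order of p, and 51 miRNAs were called (16.0% of those tested). Of the 2 members tested, 0 were called in limma-voom and 0 in limma-trend, and 1, mir-335, had an unadjusted p under 0.05 in limma-voom. Over all 319 miRNAs tested, 83 had an unadjusted p under 0.05 in limma-voom, and limma-trend called 49. An exact two-sided permutation test of the 6 values of mir-335 gave p = 0.1, the smallest that 3 against 3 libraries allow.

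The spread of mir-335 within a group lay mostly between library C and the others. Its log2 deviation from the mean of A and B was -1.44 in ESCs and -2.10 in NCs, and 27 and 14 of the 235 miRNAs were lower still. Between the deeper libraries, A and B of each group, mir-335 was 5.95-fold higher in NCs, and between the shallowest libraries it was 3.79-fold higher. When the library set was added as covariate, the log2 FC in limma-voom was 2.41 ± 0.15 (SE) and the adjusted p-value 4.90e-07. That fit called 45.1% of the miRNAs tested, 23.5% higher and 21.6% lower in NCs, and mir-335 was 10th in order of p. In the 2 deeper libraries of each group its log2 FC was 2.58 ± 0.12 (SE), with an adjusted p-value of 9.85e-10 in limma-voom, and it had the smallest p of the 327 miRNAs tested. In that fit 50.2% were called, 28.4% higher and 21.7% lower in NCs. Without NC library C alone the log2 FC was 3.10 (adjusted p-value 0.0107 in limma-voom). Without any other single library it stayed between 1.90 and 2.75 and was not called. The lowest of these, 1.90, came without ESC library C, so the difference was larger without NC library C or without both C libraries, and smaller without that of the ESCs alone.

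**Figure D2:**
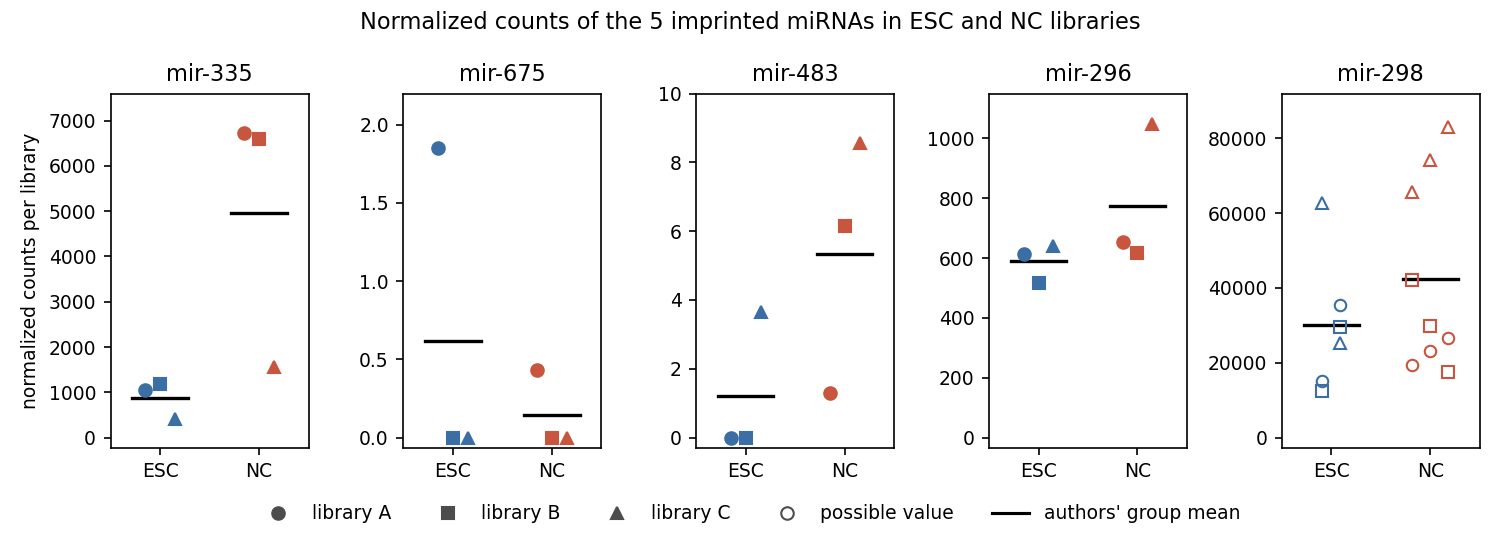
Each panel shows 1 member, with normalized counts on a linear y axis and the ESC (blue) and NC (red) libraries on the x axis. Filled symbols are recovered libraries A (circle), B (square) and C (triangle), and black bars are the authors' group means. For mir-298 the open symbols are possible values, 1 column per set of reads that gives the deposited mean. For mir-335 the NC libraries (1556 to 6728) lie above the ESC libraries (411 to 1194), and for mir-296 and mir-298 the groups overlap.

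mir-296 is known, together with other miRNAs, to act on sites in the coding sequences of Nanog, Pou5f1 and Sox2 as mouse ESCs differentiate. mir-296 had 996, 485 and 351 reads in ESC libraries A, B and C, or 614, 517 and 641 normalized counts. In NCs it had 1507, 604 and 613 reads, or 653, 618 and 1048 normalized counts. NC library B lay within the ESC range and A just above it, and library C was the high one, so the groups overlapped. The means were 591 ± 65.1 (SD, n = 3) and 773 ± 239 (SD, n = 3).

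The log2 FC of mir-296 was 0.37 ± 0.30 (SE) in limma-voom, with an adjusted p-value of 0.558. The 95% interval ran from 0.783-fold to 2.13-fold, and it was 0.914-fold to 1.39-fold in the 2 deeper libraries of each group. The exact two-sided permutation test gave p = 0.2. Between the deeper libraries mir-296 was 1.12-fold higher in NCs, and between the shallowest ones 1.63-fold. With the library set as covariate the adjusted p-value was 0.104 in limma-voom. The direction of its difference depended on the scaling. Setting the groups to equal totals shifted the log2 FCs of the group means by -0.47, and turned that of mir-296 to -0.087. Doing so without mir-10a shifted them by 0.44 and gave 0.83. With the pseudocount, both shifts were smaller for miRNAs at low levels.

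mir-298, the neighbour of mir-296, was the most abundant of the 5, with group means of 30148 in ESCs and 42350 in NCs. It is known as a repressor of BACE1, a protease that cuts the amyloid precursor protein. At this level more than 1 set of whole reads gave the deposited mean, 2 sets in ESCs and 3 in NCs. The first ESC set gave 15139, 12468 and 62837 normalized counts in libraries A, B and C, and the second 35558, 29486 and 25401. In the first, library C was 4.55 times the mean of A and B, and in the second all 3 were close. The 3 NC sets gave 19474, 42012 and 65565, or 23030, 29742 and 74279, or 26586, 17472 and 82993. In every NC set library C was the highest, at 2.13 to 3.77 times the mean of A and B. Of the 235 miRNAs with a known deviation, 28 had a higher one in NC library C than the lowest of these sets, and in 1 of the 28 the deviation was below 0 in ESC library C, as it would be in the second ESC set.

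The group means of mir-298 differed by 1.40-fold. In none of the 6 combinations of sets were the ESC and NC libraries apart. Entered in limma-voom with each combination, the log2 FC of mir-298 ranged from 0.15 to 0.74 and the adjusted p-value from 0.623 to 0.904. With the library set as covariate 2 of the 6 combinations were called higher and 0 lower, with adjusted p-values from 0.00588 to 0.770 in limma-voom. That fit called 23.5% of all miRNAs tested higher and 21.6% lower. Without NC library C the log2 FC ranged from -0.47 to 0.36 and 0 of 6 were called. In the 2 deeper libraries of each group the log2 FC of mir-298 ranged from -0.58 to 1.04 over the combinations. There 3 of the 6 were called higher and 1 lower in NCs, beside 28.4% higher and 21.7% lower over all miRNAs tested. No direction can therefore be given for mir-298 from its single libraries. At equal totals the log2 FC of its means was 0.015, and without mir-10a it was 0.93.

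mir-298 and mir-296 were at unequal levels although 378 bases apart. The ratio of their group means was 51.0 in ESCs and 54.8 in NCs. In single libraries the ratio was 24.1 to 98.0 in the first ESC set of mir-298 and 39.6 to 57.9 in the second. Over the 3 NC sets it was between 28.3 and 79.2. The ratio within libraries thus overlapped between the groups.

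**Figure D3:**
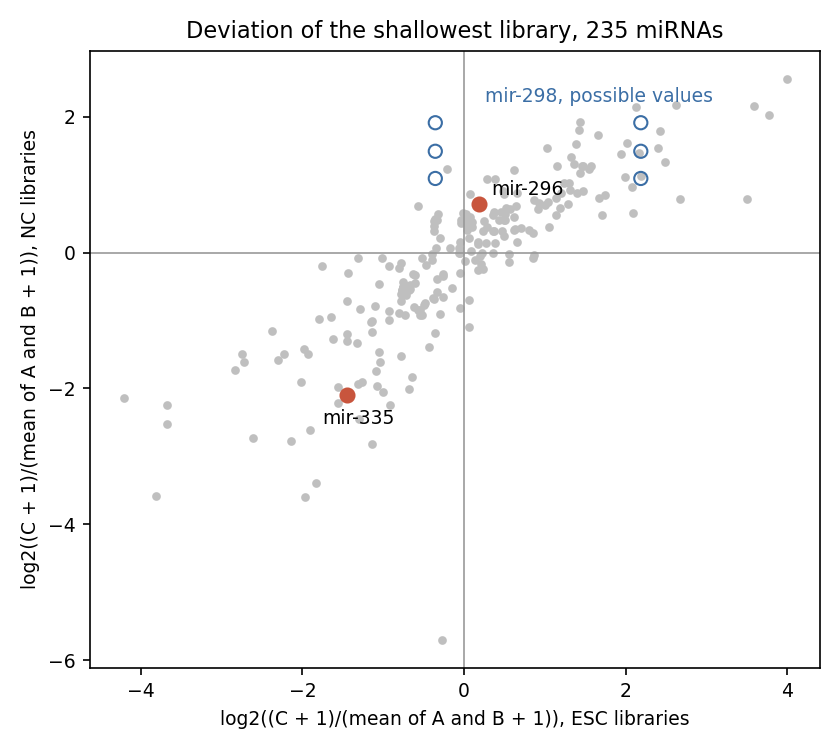
Each grey point is 1 of 235 miRNAs with group means of at least 20. The axes give log2((C + 1)/(mean of A and B + 1)) of normalized counts, for ESC libraries on x and NC libraries on y. mir-335 lies at -1.44 and -2.10 and mir-296 at 0.18 and 0.72. Open blue circles are the 6 combinations of possible values of mir-298, all above 1 on the y axis.

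mir-483, in the Igf2 intron, was close to the limit of detection. Its ESC mean, 1.22 normalized counts, was under the 3.51 that 3 reads in every ESC library would give. Its NC mean, 5.33, was above the 3.17 that 3 reads in every NC library would give. ESC libraries A, B and C had 0, 0 and 2 reads, and NC libraries had 3, 6 and 5. As normalized counts the ESC values were 0, 0 and 3.65. The NC values were 1.30, 6.14 and 8.55, so the groups overlapped. The summed reads, 2 against 14, gave a ratio of 5.62 between NCs and ESCs per unit of size factor, with an exact 95% interval of 1.29 to 51.0. This interval covers counting error only and takes no account of the spread between libraries. The member did not pass the filter of at least 10 reads in 3 libraries. In the fit without that filter its adjusted p-value was 0.454 in limma-voom.

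mir-675, cut from the H19 transcript and known to restrain growth of the placenta, was seen in 1 library of each group. ESC library A had 3 reads and NC library A had 1, and the other 4 libraries had 0. Both group means (0.616 and 0.145 normalized counts) were under the means that 3 reads in every library would give, 3.51 in ESCs and 3.17 in NCs. Where a library had no read of it, an expected count of up to 3 reads was still possible. A difference in mir-675 was therefore not detectable at this depth, and no fold is given.

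**Figure D4:**
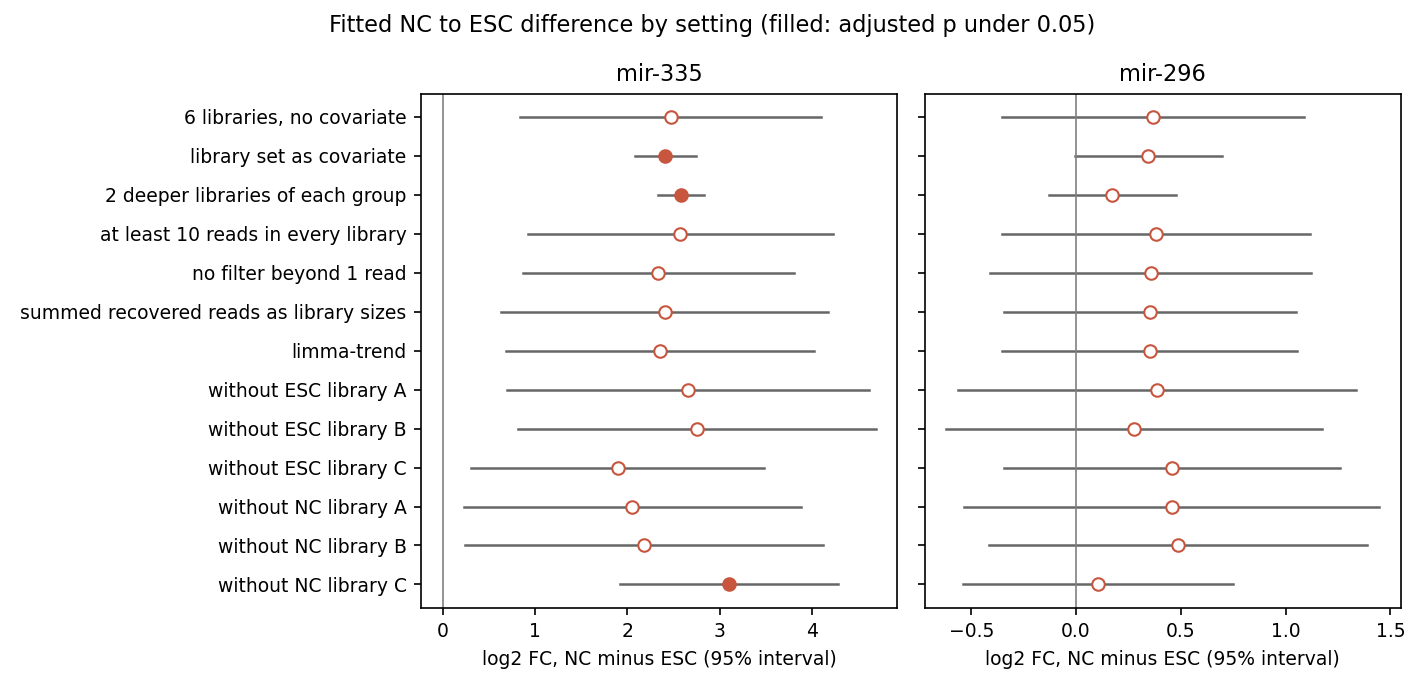
Points are the log2 FC (NC minus ESC) of mir-335 and mir-296 in limma fits under 13 settings, and lines are 95% intervals. Filled points have an adjusted p-value under 0.05. mir-335 stays between 1.90 and 3.10 and is filled under 3 settings, and mir-296 stays between 0.10 and 0.49 and is never filled.

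The miRNAs whose pattern over the 6 libraries was nearest to a member were found by the root mean square difference of log2(normalized count + 1), after centring each miRNA on its own mean. For mir-335 the nearest of 318 were mir-879 (0.271), mir-218-1 (0.344) and mir-301a (0.492), where the median over all was 1.56. From ESCs to NCs the group mean went from 33.5 to 153 for mir-879, from 65.0 to 231 for mir-218-1 and from 20.5 to 78.2 for mir-301a. Without the library set as covariate, mir-301a was the 1 of these 3 with an adjusted p-value under 0.05 (0.0449 in limma-voom). All 3 passed once limma-voom included that covariate, where mir-879 had an adjusted p-value of 2.04e-05, mir-218-1 of 9.53e-06 and mir-301a of 0.000181. That fit called 45.1% of all miRNAs tested, and 23.5% higher in NCs. The 3 were chosen for their likeness to mir-335 over these same libraries, so their p-values are not separate evidence. For mir-296 the nearest were mir-339 (0.129), mir-679 (0.142) and mir-667 (0.187), with a median of 0.686 over all. mir-679 and mir-667 belong to the imprinted Dlk1-Dio3 domain.

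Other miRNAs linked to imprinted loci are given for comparison, by lists. The Sfmbt2-type repeat families among them were taken by name alone. Their positions were not checked, so not every copy need be imprinted. mir-184, reported as paternally expressed, had 1 read in NC library A and 0 in the other 5 libraries. In the Dlk1-Dio3 domain, 37 of the 50 miRNAs listed were tested, and limma-voom called 1 higher and 2 lower in NCs. Over all miRNAs tested, 10.0% were called higher and 5.96% lower. The 3 were mir-412 (log2 FC 1.51), mir-540 (-1.39) and mir-329 (-1.15), which are named after their values were seen. With the library set as covariate 1 was higher and 12 were lower, where that fit called 23.5% of all miRNAs tested higher and 21.6% lower. Of the Sfmbt2-type repeat families (mir-297, mir-466, mir-467 and mir-669), 61 of 80 were tested. In limma-voom or limma-trend 0 were called, with 1 at an unadjusted p under 0.05 in limma-voom. Over all 319 miRNAs tested, limma-voom called 51 and limma-trend 49, and 83 had an unadjusted p under 0.05 in limma-voom. With the covariate 6 of the 61 were lower, beside the same 21.6% over all. The median log2((NC mean + 1)/(ESC mean + 1)) was -0.19 over 49 detected Dlk1-Dio3 miRNAs and -0.22 over 72 detected miRNAs of the repeat families. Many genes of the repeat families are copies with nearly equal reads. In ESC library A, mir-467a-1 and mir-467a-10 had 308 and 307 reads, and mir-669a-1 and mir-669a-10 had 132 each. The counts and the median of these families are therefore not over separate measurements, and the shares over all miRNAs tested include such copies. The differences between these lists and the 5 members were not tested.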

How the data were processed

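Small RNA from 3 ESC and 3 NC samples was sequenced by the authors, and the groups were taken from the sample titles. The deposited table held the authors' group means of normalized counts (signal), with DESeq and mm10 named in the submitters' processing notes; the aligner and counting rules were not given in the sources used here. Its columns of fold change (ratio), log2 fold change, p-value and adjusted p-value, the authors' own comparison, were not used. The members and lists were chosen with earlier results of these data known.

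Reads were recovered by enumerating all whole numbers that gave a mean within 6e-11, for means up to 25000 (60000 for members). Each size factor matched 1 miRNA's read count over its geometric mean. limma 3.58.1 (R 4.3.3) with voom weights and the recovered size factors was fitted to miRNAs that reached 10 reads in no fewer than 3 libraries (2 where a group had only 2), with Benjamini-Hochberg adjustment over all miRNAs tested. Group means were compared with a pseudocount of 1, which understates changes of low miRNAs. Intervals and the floor of 3 reads cover counting error only. The alternatives covered left-out libraries, covariate, filter, scaling, weights and pseudocount. Named by rule were all 5 members, and the 3 nearest in pattern to each member with recovered reads and a mean of at least 10. Markers and mir-184 came from the lists. The miRNAs mir-412, mir-540, mir-329 and mir-142, and the copies of mir-467a and mir-669a, were named after their values were seen. The recovery of reads and the limma fit were tested on simulated data. The scripts ran in Python 3.11.15 with scipy 1.17.1 and numpy 2.4.6.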

Additional observations from a re-analysis of the deposited data

How the results depend on the processing

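No paired analysis was possible because nothing ties a recovered library to its replicate number. The library set placed library C of both groups together by size factor alone, and no label gives such a set. The 51 calls became 144 with the library set as covariate and 164 with the 2 deeper libraries of each group. They became 31 with at least 10 reads in every library, where 228 miRNAs were tested in place of 319. The causes of these moves were not tested. Leaving out 1 library gave 17 to 56, of which 17 and 19 came from dropping A or B of the ESCs, and 29 and 22 from dropping A or B of the NCs. mir-335 had the same direction under every setting run. It passed the threshold with the covariate (log2 FC 2.41), in the deeper libraries (2.58) and without NC library C (3.10). Over the 6 fits that left out 1 library its log2 FC was 1.90 to 3.10. mir-296 passed under none, at 0.10 to 0.49, but the log2 FC of its means reversed to -0.087 at equal totals and moved to 0.83 at equal totals without mir-10a, by the shift itself. The median of the 5 members, which is the value of mir-298, moved to 0.015 and 0.93 under these scalings. The possible reads of mir-298 and the floor were alternatives chosen after seeing the data, and the median with low means at the floor stayed at 0.49. mir-483 moved from 1.51 to 0.45 at a pseudocount of 10. mir-298 was called in 2 of 6 combinations with the covariate and in 4 of 6 in the deeper libraries, where the fits called 45.1% and 50.2% of all miRNAs tested. Depth limited mir-483 and mir-675, which had at most 6 reads in a library.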
